A study of Mus musculus with 3 samples.

Results

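The genes described here were the collagens, laminins and integrins as expressed by MBT2 cells, a line from a mouse bladder cancer. They were every collagen chain, laminin chain and integrin subunit gene listed by symbol in the deposited table of 57010 genes. The table held 81 such genes, and 43 of them reached at least 10 counts in at least 1 library, among 14003 genes in all that did so. The 43 were 7 fibrillar collagens, 4 collagens of the basement membrane and its anchoring fibrils, 8 laminins, 10 other collagens and 14 integrins. Bulk RNA-seq compared MBT2 cells carrying a scramble hairpin with cells carrying either of 2 hairpins against Asns, shAsns#1 and shAsns#2. Asns encodes asparagine synthetase, which makes asparagine from aspartate. The study's methods describe lentiviral pLKO.1 hairpins and puromycin selection in all 3 lines, with no drug treatment that distinguished the groups. Each condition had 1 library.

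Collagens are triple helices of 3 chains that build fibrils, networks and beaded filaments in the extracellular matrix. Laminins are cross-shaped heterotrimers of an alpha, a beta and a gamma chain that assemble the first sheet of a basement membrane, which collagen IV then stabilizes. Integrins are heterodimers of an alpha and a beta subunit that bind these proteins at the cell surface and couple them to actin, and in the bladder epithelium they anchor basal cells to the basement membrane.

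The libraries held 19326826 counts for scramble, 19167852 for shAsns#1 and 22915511 for shAsns#2. Levels are given as CPM, the counts per 1000000 counts of the TMM-scaled library, with 95% Poisson intervals in parentheses. These intervals cover counting error only. Asns was 84.4 CPM in scramble, 33.5 in shAsns#1 and 27.8 in shAsns#2, which was lower with both hairpins (log2 fold change -1.46, SE 0.15, edgeR adjusted p = 0.0071). Of 18 urothelial and epithelial markers, 6 were kept and none passed edgeR's test. Of the 6, 2 had an unadjusted p under 0.05 (all genes 19.8%), and DESeq2 and limma-voom called none. Their summed level was 19.3, 21.5 and 24.4 CPM in the 3 libraries. Krt5 and the umbrella cell genes Krt20, Upk1b and Upk3a were at 0 in all 3 libraries, the basal cell genes Krt14 and Trp63 had 1 to 5 counts, and Upk1a had 8, 8 and 12. The luminal regulator Gata3 had 47, 83 and 127 counts. Krt8 had 23, 69 and 107 counts, with a log2 fold change of 1.72 (SE 0.39, edgeR adjusted p = 0.067). Epcam, Foxa1 and Krt18 were also kept, with log2 fold changes of 0.05, -0.30 and -0.01. Of 8 fibroblast markers, 5 were kept, and their summed level, mostly Vim, was 3950.5, 2843 and 2241 CPM, while Thy1 was at 0 in all 3. None of 5 leukocyte markers was kept. In such bulk libraries, fewer cells of a type and less RNA per cell cannot be told apart.

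Knockdown of ASNS went with a split among the 7 of these genes that edgeR called. Lamb1, Col18a1, Col4a5 and Lama3, whose products are basement membrane components, rose, and Col6a1, Col6a2 and Col12a1, whose products lie in the interstitial matrix around fibrils, fell. Of these 7, Lamb1 and Col12a1 alone passed under each of the 7 alternatives of scaling, filter and test. With limma-voom, Lamb1, Col12a1 and Col6a2 were called and the others were not. The split did not hold for whole classes. Col7a1 of the anchoring fibrils (log2 ratios to scramble -0.63 with shAsns#1 and -0.76 with shAsns#2) and Lamb2 (-0.69 and -0.30) were below scramble. Of the fibrillar collagens, Col3a1 (0.21 and 0.58) was above it and Col5a1 (-0.32 and -0.29) below it. None of these passed. No fibrillar collagen and no integrin passed the test. This count came from edgeR's quasi-likelihood test of both hairpin libraries as 1 arm against scramble, at a Benjamini-Hochberg adjusted p under 0.05 over all 14003 genes. Of the 43 genes 4 were called higher, against 1.14% of all genes, and 3 lower, against 1.51%. In either direction 7 were called, or 16.3%, against 2.65% of all genes. The 43 genes were chosen with earlier results of these data known, so these shares are not an independent result. At an unadjusted p under 0.05 there were 15 of 43, and 19.8% of all genes. The test had 1 residual degree of freedom and took the spread between the hairpins as that of the lone scramble library as well. edgeR also draws each gene's spread toward that of all genes, so its p-values measure only this pooled spread between the hairpins. The labels do not say whether the libraries came from separate cultures.

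The ratios to scramble were also taken hairpin by hairpin, in comparisons that share the scramble library. The log2 ratio was below 0 with both hairpins for 22 of the 43 genes, above 0 with both for 14 and opposite in sign for 7. Across all genes 39.1% were below 0 with both and 38.7% above 0 with both. The median over the 43 was -0.16 with each hairpin, and the median over all genes was 0.00. These class medians rest on few genes and moved with the count filter. The basement membrane collagens had medians of 0.40 with shAsns#1 and -0.01 with shAsns#2, where at least 10 counts in every library gave 0.72 and 0.74. The laminins had -0.02 and 0.12, which that filter turned to 0.12 and -0.17. The fibrillar collagens had -0.32 and -0.33, which came to -0.11 and -0.30 with that filter and to -0.02 and 0.51 with no filter. The other collagens had -0.64 and -0.70, which came to -0.22 and -0.20 with at least 10 counts in every library. The integrins had -0.09 and -0.03, where the shAsns#2 value was 0.08 with scaling by total counts.

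**Figure D1:**
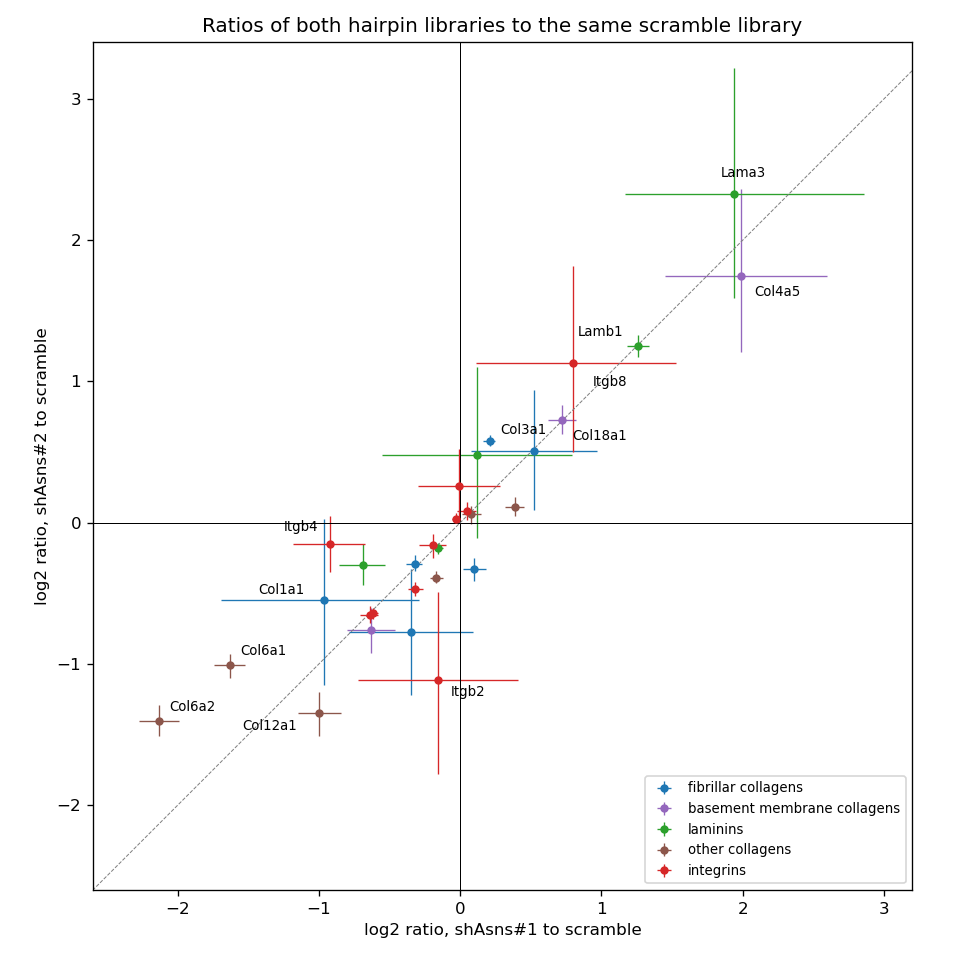
Log2 ratio of shAsns#2 to scramble (y axis) against that of shAsns#1 to scramble (x axis) for 30 collagen, laminin and integrin genes with at least 50 counts in a library, coloured by class, with 95% counting intervals. Lama3, Col4a5 and Lamb1 lie furthest to the upper right, Col6a2 and Col6a1 furthest to the lower left, and both axes share the scramble library.

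Single library pairs were compared with an exact conditional binomial test of their counts, which compares those libraries and not the conditions. A call needed an adjusted p no higher than 0.05 and a log2 ratio beyond 1.5 in either direction. By that rule shAsns#1 was higher than scramble in 3 of the 43 genes, against 1.87% of all genes, and lower in 3, against 1.36%. For shAsns#2 there were 3 higher, against 2.64%, and 2 lower, against 1.29%. Col4a5, Lama3 and Itga2b made up the higher calls in each library. Itga2b, with 6 counts in scramble, was kept only through the hairpin libraries, and with at least 10 counts required in every library the higher calls were 2 for each hairpin. The lower calls were Col6a1, Col6a2 and Col14a1 in shAsns#1 and Col11a2 and Col6a4 in shAsns#2. The last 3 of these 5 had under 20 counts in every library, and Col14a1 and Col6a4 were kept only through scramble. With at least 10 counts required in every library the lower calls were 2 for shAsns#1 and 0 for shAsns#2. With a 1.5-fold difference as the rule, both hairpin libraries exceeded scramble for 6 genes, against 3.83% of all genes, and were below it for 7, against 3.91%. The 6 were Lamb1, Col18a1, Col4a5, Lama3, Itgb8 and Itga2b. The latter included Col6a1, Col6a2, Col12a1, Col7a1, Itgav and Itgb7.

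RefSeq promoter sequences (build GRCm38.p6) show what lies upstream of some of these genes. The stretches are the part of the 250 bases before the first RefSeq start that no GENCODE M21 exon covers. They are shown for Lamb1 and Col18a1, which rose, and for Col6a1 and Col6a3, chains of 1 trimer of which Col6a1 fell and Col6a3 did not pass the test. Capitals mark a CCAAT box (CCAAT) or a GC box (GGGCGG), each searched on both strands together with a TATA box (TATAAA) and an AP-1 site (TGANTCA).
Lamb1, chr12:31265043-31265233, plus strand: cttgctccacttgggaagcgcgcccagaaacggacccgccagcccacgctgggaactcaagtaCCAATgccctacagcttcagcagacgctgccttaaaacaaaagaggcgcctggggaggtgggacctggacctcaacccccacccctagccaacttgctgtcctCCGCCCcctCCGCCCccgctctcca
Col18a1, chr10:77166549-77166780, minus strand: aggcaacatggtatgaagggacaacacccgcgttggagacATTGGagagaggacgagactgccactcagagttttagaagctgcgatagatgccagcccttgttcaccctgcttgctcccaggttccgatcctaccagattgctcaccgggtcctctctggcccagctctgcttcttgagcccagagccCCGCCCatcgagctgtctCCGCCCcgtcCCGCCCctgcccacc
Col6a1, chr10:76726169-76726294, minus strand: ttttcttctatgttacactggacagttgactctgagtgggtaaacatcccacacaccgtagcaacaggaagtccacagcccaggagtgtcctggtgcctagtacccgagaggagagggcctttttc
Col6a3, chr1:90843972-90844221, minus strand: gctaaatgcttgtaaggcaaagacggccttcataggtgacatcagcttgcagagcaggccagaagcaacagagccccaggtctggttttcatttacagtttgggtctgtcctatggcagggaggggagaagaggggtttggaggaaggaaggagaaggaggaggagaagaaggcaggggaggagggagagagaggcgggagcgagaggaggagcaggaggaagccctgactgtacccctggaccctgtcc
The Lamb1 stretch of 191 bases held 1 CCAAT box and 2 GC boxes. In the same window of all 32851 listed mouse promoters, 26.9% held a CCAAT box and 23.1% a GC box. The Col18a1 stretch of 232 bases held 1 CCAAT box and 3 GC boxes, where 32.4% and 30.1% of all promoters held one. Col18a1 had 2 listed starts, and which of them these cells use was not tested. Neither collagen VI stretch, 126 bases for Col6a1 and 250 for Col6a3, held any of the 4 motifs. Most promoters lack each of them. In 250 bases of all promoters, 12.4% held a TATA box, 33.8% a CCAAT box, 32.7% a GC box and 6.75% an AP-1 site. The Col6a1 stretch is shorter than that window, and shares for its length were not taken. A link between these motifs and the changes was not tested. For Col6a2 only 24 bases were left outside exons and are not shown. A promoter was listed for 30 of the 43 genes.

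Among the laminins, Lamb1 was the gene that stood out. It encodes the beta 1 chain, which joins alpha and gamma chains in the laminins of most basement membranes (chr12:31265234-31329644, GRCm38). Lamb1 was 88 CPM (83.8 to 92.4) in scramble, 211 (204 to 217) in shAsns#1 and 209.7 (204 to 216) in shAsns#2. Both hairpin libraries lay above scramble, their intervals did not meet its interval, and they overlapped each other. The log2 ratios were 1.26 (1.18 to 1.34) and 1.25 (1.17 to 1.33), and the fitted log2 fold change was 1.26 (SE 0.14, edgeR adjusted p = 0.0096). Lamb1 passed the threshold under each of the 7 alternatives of scaling, filter and test, with adjusted p between 7.7e-12 and 0.019.

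The other abundant laminin chains did not pass the test. Lamc1, the gamma 1 chain and the most abundant laminin gene per kilobase, was 469, 418 and 414 CPM (log2 fold change -0.17, edgeR adjusted p = 0.6). Lamb2, the beta 2 chain that takes the place of beta 1 in other laminins, was 41.3, 25.6 and 33.7 CPM, so both hairpin libraries lay below scramble, and it did not pass (-0.48, SE 0.18, edgeR adjusted p = 0.21). Per kilobase of gene length as deposited, Lamb1 stood at 0.248 of Lamc1 in scramble (95% counting interval 0.235 to 0.261), at 0.664 (0.639 to 0.69) in shAsns#1 and at 0.669 (0.646 to 0.692) in shAsns#2. The ratio of Lamb1 to Lamb2 per kilobase was 2.07 in scramble, 8.02 in shAsns#1 and 6.07 in shAsns#2. The share of beta chain transcripts that came from Lamb1 was thus larger in both hairpin libraries than in scramble, beyond counting error.

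The alpha chains, which carry the main integrin-binding domains, were all low. Lama3, the alpha 3 chain of epithelial laminins, had 16 counts in scramble, 64 in shAsns#1 and 105 in shAsns#2, or 0.858 CPM (0.49 to 1.39), 3.37 (2.59 to 4.3) and 4.39 (3.59 to 5.32). Both hairpin libraries lay above scramble and the intervals did not meet (log2 fold change 2.18, SE 0.43, edgeR adjusted p = 0.046). This call held under 3 of the 7 alternatives, with adjusted p up to 0.094. Lama5, the widely expressed alpha 5 chain, was 2.04, 2.21 and 2.85 CPM with overlapping intervals. Lama1, Lama2 and Lama4 had 0 to 2 counts in each library and were not kept.

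Other laminin chains of low level did not pass the test. Lamb3, the beta 3 chain that pairs with alpha 3 in epithelial basement membranes, had 8 to 19 counts and intervals that overlapped in all 3 libraries. Its gene overlaps Hsd11b1 on the other strand, which had 5 to 8 counts. Lamc3, the gamma 3 chain, had 18, 31 and 15 counts, and both its intervals against scramble included no change.

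Among the collagens of the basement membrane, Col18a1 and Col4a5 rose. Col18a1 encodes collagen XVIII, a collagen with heparan sulfate chains whose C-terminal fragment is endostatin (chr10:77052178-77166548). It was 66.9 CPM (63.2 to 70.7) in scramble, 110.3 (106 to 115) in shAsns#1 and 111 (107 to 115) in shAsns#2. The hairpin libraries overlapped each other and lay above scramble. The log2 fold change was 0.73 (SE 0.13, edgeR adjusted p = 0.036), and the call was lost with DESeq2 size factors and with limma-voom, both at an adjusted p of 0.053. Col18a1 overlaps Slc19a1, which lies on the other strand and had 523, 738 and 925 counts, and the counting is not stated to use strand, so reads of the pair cannot be told apart where they overlap.

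Col4a5 encodes the alpha 5 chain of collagen IV, mutated in Alport syndrome (chrX:141475385-141689234). It had 33, 135 and 144 counts, or 1.77 CPM (1.22 to 2.48) in scramble, 7.1 (5.96 to 8.41) in shAsns#1 and 6.03 (5.08 to 7.1) in shAsns#2. The hairpin libraries lay above scramble and overlapped each other (log2 fold change 1.89, SE 0.32, edgeR adjusted p = 0.029). The call held under 6 of 7 alternatives and was lost with limma-voom, at an adjusted p of 0.068. Its partner chains were barely counted. Col4a6, which lies head to head with it and joins it in 1 trimer, had 0, 0 and 3 counts, and Col4a3 and Col4a4 had 2 to 7. Col4a1 and Col4a2, the chains of the common collagen IV, had 6 to 14 counts, and for Col4a2, the only one of them kept, the intervals of all 3 libraries overlapped.

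Col7a1, the chain of the anchoring fibrils that tie a basement membrane to the matrix below it, had values in the other direction. It was 38.9 CPM (36.1 to 41.8) in scramble, 25.2 (23 to 27.6) in shAsns#1 and 23 (21.1 to 25) in shAsns#2. Both hairpin libraries lay below scramble, and the fit missed the threshold (-0.69, SE 0.15, edgeR adjusted p = 0.056), passing under 3 of 7 alternatives. Summed over the kept basement membrane collagens, the level was 108 CPM in scramble, 143 in shAsns#1 and 140.3 in shAsns#2. For the kept laminins it was 616, 671 and 673.

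**Figure D2:**
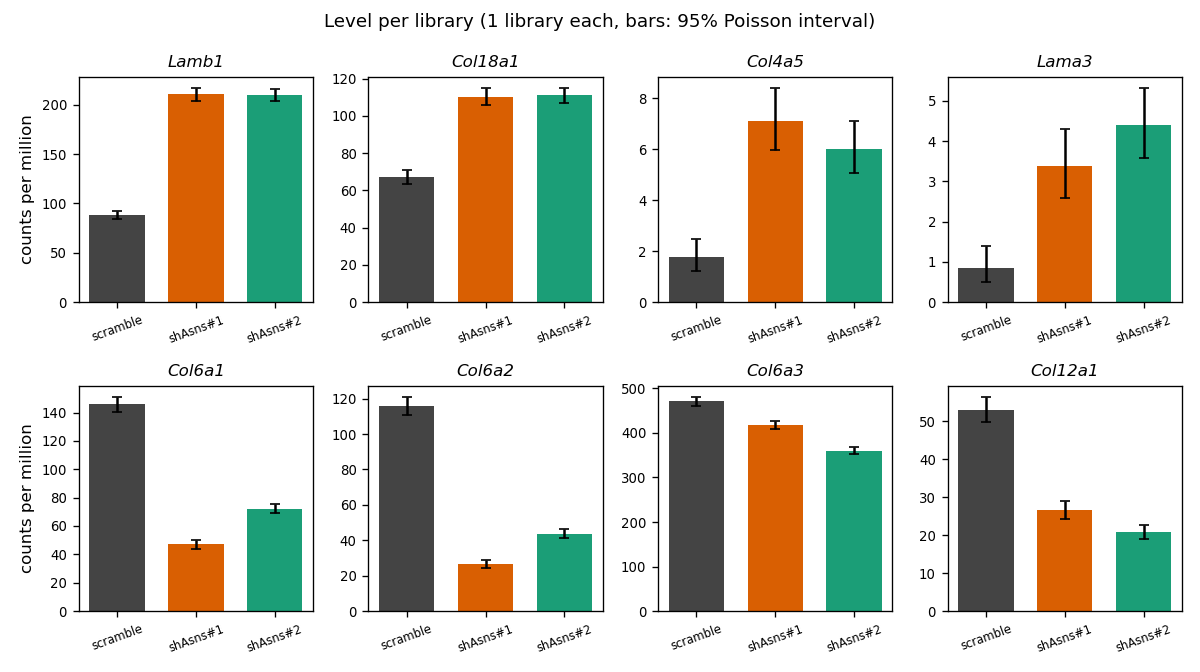
CPM in scramble, shAsns#1 and shAsns#2 for the 7 genes that passed edgeR's test and for Col6a3, which did not, with 95% Poisson intervals as error bars and each y axis (CPM) starting at 0. Lamb1 stands at 88 in scramble, 211 in shAsns#1 and 209.7 in shAsns#2, while Col6a2 stands at 116 in scramble, 26.4 in shAsns#1 and 43.8 in shAsns#2.

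Collagen VI, the beaded-filament collagen that links cells to the interstitial matrix, is assembled from alpha 1, alpha 2 and a longer alpha 3-type chain. Its alpha 1 and alpha 2 genes, neighbours on chromosome 10, fell, and the alpha 3 gene on chromosome 1 did not pass the test. Col6a1 was 146 CPM (140.1 to 151) in scramble, 47 (44 to 50.2) in shAsns#1 and 72.1 (68.8 to 75.6) in shAsns#2 (chr10:76708792-76726168). Col6a2 was 116 CPM (111 to 121), 26.4 (24.2 to 28.8) and 43.8 (41.2 to 46.6) (chr10:76595762-76623630). For both genes scramble was highest, shAsns#1 lowest and shAsns#2 between them, with no overlap of intervals. The log2 fold change was -1.29 for Col6a1 (SE 0.22, edgeR adjusted p = 0.03) and -1.71 for Col6a2 (SE 0.25, edgeR adjusted p = 0.018). Col6a1 lost its call with DESeq2 size factors (adjusted p = 0.056) and with limma-voom (0.053), and Col6a2 lost it with the DESeq2 test (0.13).

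Col6a3, the alpha 3 chain, was 471 CPM (461 to 481), 419 (409.6 to 428) and 359.9 (352 to 368), with a log2 fold change of -0.27 (SE 0.17, edgeR adjusted p = 0.42). Set against it per kilobase, Col6a1 was at 0.762 (0.73 to 0.796) in scramble, 0.277 (0.258 to 0.297) in shAsns#1 and 0.494 (0.469 to 0.52) in shAsns#2. Col6a2 was at 0.629 (0.6 to 0.659), 0.161 (0.147 to 0.177) and 0.312 (0.292 to 0.332). The chains were therefore counted in different proportions in the 3 libraries. Col6a4, a further chain, had 14, 6 and 5 counts, and Col6a5 and Col6a6 had 0 to 3.

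Col12a1, a fibril-associated collagen that sits on the surface of collagen I fibrils, also fell. It was 53 CPM (49.8 to 56.4) in scramble, 26.6 (24.3 to 29) in shAsns#1 and 20.7 (18.9 to 22.6) in shAsns#2 (chr9:79598991-79718831). Scramble was the highest library and the 3 intervals did not overlap (log2 fold change -1.17, SE 0.17, edgeR adjusted p = 0.02). It passed under all 7 alternatives, with adjusted p between 4.6e-10 and 0.038. Col14a1, its close relative, had 10, 1 and 5 counts.

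The remaining collagens of this class did not pass. Col16a1, another fibril-associated collagen, was 171, 180.5 and 178 CPM (edgeR adjusted p = 0.83). Col8a1, a short-chain network collagen, was 185, 242 and 201 CPM, highest in shAsns#1 (0.26, SE 0.17, edgeR adjusted p = 0.43). Col17a1, the hemidesmosomal transmembrane collagen, had 10 to 25 counts, and Col9a3, a chain of cartilage collagen IX, 11 to 15. The summed level of the 10 kept genes of this class was 1144 CPM in scramble, 943 in shAsns#1 and 877 in shAsns#2.

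None of the 7 kept fibrillar collagens passed edgeR's test, none had an unadjusted p under 0.05, and DESeq2 and limma-voom called none. Col3a1, which forms the thin fibrils of soft tissue, was the most abundant of all the collagens per kilobase. It was 391 CPM (382 to 399.9) in scramble, 451 (441 to 460.4) in shAsns#1 and 585 (575 to 594) in shAsns#2, with no overlap. The hairpin libraries were both above scramble but differed from each other, by 0.38 on the log2 scale, more than shAsns#1 did from scramble, by 0.21, and the fit gave 0.41 (SE 0.21, edgeR adjusted p = 0.32). Col5a1, the alpha 1 chain of collagen V that sets fibril diameter, was 308, 246 and 253 CPM, below scramble in both hairpin libraries (-0.30, SE 0.15, edgeR adjusted p = 0.3). The ratio of Col3a1 to Col5a1 per kilobase was 1.92 (1.85 to 1.98) in scramble, 2.76 (2.67 to 2.86) in shAsns#1 and 3.49 (3.39 to 3.6) in shAsns#2. Col5a3 was 131, 139.8 and 104 CPM and had ratios of opposite sign with the hairpins.

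The chains of collagen I, the main collagen of bone and skin, were low in this line. Col1a1 had 54, 28 and 47 counts, or 2.89 CPM (2.17 to 3.78), 1.47 (0.979 to 2.13) and 1.97 (1.45 to 2.62), and Col1a2 had 73, 107 and 133 counts. Col1a1 lay below scramble and Col1a2 above it in both hairpin libraries, with log2 fold changes of -0.74 (SE 0.40, edgeR adjusted p = 0.35) and 0.52 (SE 0.27, edgeR adjusted p = 0.34). Col27a1 was 5.36, 4.21 and 3.14 CPM (edgeR adjusted p = 0.37). Col11a2 had 19, 11 and 7 counts. The summed level of the class was 843, 849 and 952 CPM.

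**Figure D3:**
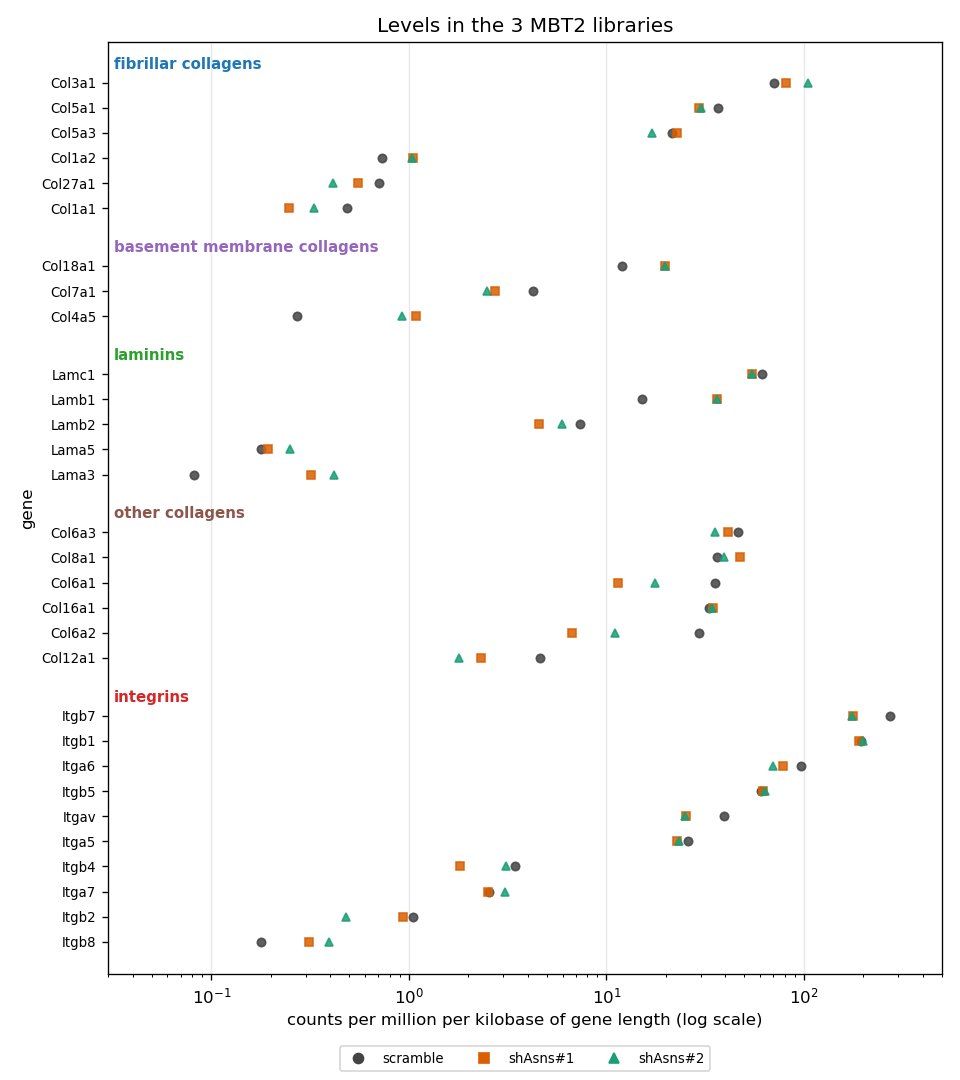
Level of 30 genes with at least 50 counts in a library (y axis, grouped by class), in CPM per kilobase of gene length on a log axis (x axis), with 1 point each for scramble (circle), shAsns#1 (square) and shAsns#2 (triangle). Itgb7, at 272, 177 and 175, and Itgb1, at 195 in scramble and 191 in shAsns#1, are the highest, and the 3 points of Itgb1 nearly coincide.

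Among the integrins, none of 14 kept genes passed edgeR's test, and 5 had an unadjusted p under 0.05 (all genes 19.8%). DESeq2 called 2, Itgav and Itgb7 (all genes 2.28%), and limma-voom called none. Itgb1, the beta 1 subunit shared by most collagen and laminin receptors, was 745 CPM (733 to 758) in scramble, 730.0 (718 to 742) in shAsns#1 and 763 (752 to 774) in shAsns#2. Its log2 fold change was 0.00 (SE 0.18, edgeR adjusted p = 0.99). Of its alpha partners, Itga6, a laminin receptor, was 329, 264 and 237 CPM, below scramble in both hairpin libraries (-0.39, SE 0.15, edgeR adjusted p = 0.22). Itga5, the fibronectin receptor, was 114, 99.4 and 102 CPM (edgeR adjusted p = 0.48). Itga7, a laminin receptor of muscle, was 10.7, 10.6 and 12.8 CPM. Itga1, Itga2 and Itga3, the subunits of further collagen and laminin receptors, had 0 to 2 counts in each library, and Itga10, a collagen receptor of cartilage, had 22 to 31.

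Itgav and Itgb7 were the integrins with the largest shifts among the abundant ones, and neither passed edgeR's test. Itgav, the alpha v subunit that binds RGD sequences in matrix proteins, was 278 CPM (270.1 to 285) in scramble, 178 (172 to 184) in shAsns#1 and 177 (171 to 182) in shAsns#2. The hairpin libraries overlapped each other and not scramble (-0.65, SE 0.14, edgeR adjusted p = 0.055), and the call was made under 4 of 7 alternatives. Itgb5, a beta partner of alpha v, was 184, 190.2 and 195 CPM (edgeR adjusted p = 0.85), so that Itgav per kilobase stood at 0.653 of Itgb5 in scramble, 0.405 in shAsns#1 and 0.392 in shAsns#2. Itgb8, another partner of alpha v, had 28, 50 and 79 counts, with log2 ratios of 0.80 (0.11 to 1.53) and 1.13 (0.50 to 1.82), and did not pass (0.99, SE 0.40, edgeR adjusted p = 0.23). Itgb3 and Itgb6, 2 more partners, had 6 to 12 counts in each library.

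Itgb7, the beta 7 subunit known from lymphocytes that home to the gut, was the most abundant integrin per kilobase in scramble, with 272 CPM per kilobase, against 195 for Itgb1. Its level was 729.5 CPM (717 to 742) in scramble, 475 (466 to 485) in shAsns#1 and 468 (459.6 to 477) in shAsns#2. Both hairpin libraries lay below scramble (-0.63, SE 0.17, edgeR adjusted p = 0.095), and 3 of 7 alternatives made the call. The alpha subunits that pair with it, Itga4 and Itgae, had 0 to 4 counts in each library, and the leukocyte markers C1qa, Cd3e and Tyrobp were at 0 in all 3, with Ptprc at 0, 1 and 1 counts and Csf1r at 9, 1 and 6. The part of other cells in the Itgb7 level was not tested. Itgb4, the beta 4 subunit of hemidesmosomes, was 19.9, 10.5 and 18 CPM. Itgb2, the leukocyte beta 2 subunit, had 58, 53 and 34 counts. Itga2b, the platelet alpha IIb subunit, was singled out after its values were seen. It had 6, 30 and 37 counts, or 0.322, 1.58 and 1.55 CPM, and the fit did not pass (2.26, SE 0.62, edgeR adjusted p = 0.1).

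The hairpins were compared directly with each other, a comparison that leaves scramble out. At a log2 ratio beyond 1.5 no gene of the 43 was called in either direction, against 0.778% of all genes higher in shAsns#2 and 0.593% lower. At 1.5-fold, 3 were higher in shAsns#2, against 2.33% of all genes, and 2 lower, against 2.58%. The 3 were Col6a1, Col6a2 and Itgb4, and the 2 were Itgb2 and Lamc3. For the others that edgeR called, the interval of the ratio of shAsns#2 to shAsns#1 was -0.07 to 0.05 for Lamb1, -0.07 to 0.09 for Col18a1, -0.59 to 0.11 for Col4a5, -0.08 to 0.86 for Lama3 and -0.54 to -0.18 for Col12a1, all on the log2 scale.

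Genes that act with these proteins were taken from lists. Of 27 collagen processing genes 22 were kept, none was higher and 1 was lower (all genes 1.14% and 1.51%), 5 had an unadjusted p under 0.05 (all genes 19.8%), and the medians were -0.14 and -0.12. The 1 was Loxl2, a lysyl oxidase that cross-links collagen IV, at 329, 158 and 149.6 CPM (-1.10, SE 0.14, edgeR adjusted p = 0.011). Serpinh1, the collagen chaperone HSP47, was 927, 1163 and 1039 CPM and did not pass. Of 15 basement membrane partners 8 were kept, and 1 was higher and none lower (all genes 1.14% and 1.51%). In this list 2 had an unadjusted p under 0.05 (all genes 19.8%), and the medians were -0.09 and -0.09. The 1 was Fras1, a basement membrane protein of the Fraser complex, at 8.25, 19.7 and 17.8 CPM (1.18, SE 0.19, edgeR adjusted p = 0.025). DESeq2 called Fras1 as well (all genes 2.28%), and limma-voom called none of this list. Nid1, which bridges laminin and collagen IV, was 205, 267 and 294 CPM (0.45, SE 0.15, edgeR adjusted p = 0.16).

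Of 26 genes of integrin adhesions 24 were kept, none was higher and 2 were lower (all genes 1.14% and 1.51%), 5 had an unadjusted p under 0.05 (all genes 19.8%), and the medians were -0.18 and -0.14. Fermt2, which encodes the integrin activator kindlin-2, was 222, 116 and 118 CPM (-0.92, SE 0.13, edgeR adjusted p = 0.016). Tns1, which encodes tensin 1 of fibrillar adhesions, was 149.9, 90.1 and 88.2 CPM (-0.75, SE 0.13, edgeR adjusted p = 0.029). Of 12 other matrix receptors, among them the discoidin domain receptors and dystroglycan, 10 were kept and none passed edgeR's test. In this list 4 had an unadjusted p under 0.05 (all genes 19.8%), DESeq2 called 1, Cd9 (all genes 2.28%), and limma-voom none. The medians were -0.16 and -0.34. Among the fibroblast markers Dcn, the fibril-binding proteoglycan decorin, rose from 6.97 CPM to 18.8 and 25.7 (1.68, SE 0.24, edgeR adjusted p = 0.018). The other kept fibroblast markers did not pass, with fitted values of -1.27 for Dpt, -0.76 for Pdgfrb, -0.69 for Vim and 0.02 for Pdgfra. Of the 5 kept markers 4 had an unadjusted p under 0.05 (all genes 19.8%). DESeq2 called Dcn, Dpt and Vim (all genes 2.28%), and limma-voom called none, so the Dcn call was lost with it. The part of cell composition in the changes of the collagens and laminins was not tested.

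The 38 genes below the count filter had at most 9 counts in any library. They were 4 fibrillar collagens, 5 basement membrane collagens, 3 laminins, 14 other collagens and 12 integrins, and 12 of them were at 0 in all 3 libraries. A count of 0 allows up to 3 counts, or 0.161 CPM in scramble, 0.158 in shAsns#1 and 0.126 in shAsns#2. At this depth no difference could be detected in them. The fibrillar collagens were Col2a1, Col5a2, Col11a1 and Col24a1, and the basement membrane collagens were Col4a1, Col4a3, Col4a4, Col4a6 and Col15a1. The other collagens were Col6a5, Col6a6, Col8a2, Col9a1, Col9a2, Col10a1, Col13a1, Col19a1, Col20a1, Col22a1, Col23a1, Col25a1, Col26a1 and Col28a1. Among the integrins Itga8, Itga9, Itga11, Itgad and Itgax were at 0 throughout, and Itgal and Itgam had 0 to 2 counts.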

How the data were processed

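RNA from MBT2 cells with a scramble, shAsns#1 or shAsns#2 hairpin was sequenced, 1 library each. As deposited by the authors, values are estimated counts in which genes can share reads, beside gene lengths: 32.8%, 33% and 32.6% of the values above 0 were not whole within 1e-09. The submitters' processing notes name Bowtie 0.12.2. Counter, build, annotation and use of strand: not given in the sources used here.

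Here the estimated counts were rounded to whole numbers. Symbols came from GENCODE M21, which matched 52029 of 57010 gene identifiers, and the unmatched held 1.46% of counts. A gene was kept if any library held 10 or more counts of it. edgeR 4.0.16 (R 4.3.3) with scaling by the trimmed mean of M-values (TMM) fitted both hairpins as 1 arm against scramble over all 14003 genes, with a common biological coefficient of variation of 11.6%. SE is the log2 fold change divided by the root of the quasi-likelihood F. Pairs of libraries were compared by an exact two-sided conditional binomial test (scipy 1.17.1). Log2 ratios used a prior count of 0.5. Members reaching 50 counts in some library are named with levels, and partner genes where edgeR called them, or otherwise as examples chosen after their values were seen. The members and lists were chosen with earlier results of these data known. Scripts were tested on simulated data. Alternatives were DESeq2 1.42.0 size factors and test, total-count scaling, limma-voom 3.58.1, 3 other filters, a prior count of 2, a ratio of 1.5-fold and leaving out each hairpin. Gene annotation text in the table was not used. The values of 1 member are not reported here.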

Additional observations from a re-analysis of the deposited data

Results flagged for a closer look

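Each of 5 genes differed between the hairpin libraries by at least 1.5-fold at a binomial adjusted p of at most 0.05. This covers counting error between those libraries and not the spread between cultures. The log2 ratio of shAsns#2 to shAsns#1 was 0.62 (0.50 to 0.73) for Col6a1 and 0.73 (0.58 to 0.89) for Col6a2, both lower than scramble in each hairpin library. It was 0.77 (0.53 to 1.02) for Itgb4, which was -0.92 (-1.18 to -0.67) against scramble with shAsns#1 and -0.15 (-0.35 to 0.05) with shAsns#2. It was -0.96 (-1.64 to -0.32) for Itgb2 and -1.34 (-2.37 to -0.44) for Lamc3, which had at most 58 and 31 counts in a library.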

How the results depend on the processing

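No paired analysis was possible because each condition had 1 library and the labels carry no replicate numbers. Leaving out a hairpin left no residual degree of freedom, so calls could not be tested. The 7 called genes kept their direction without shAsns#1 and without shAsns#2, while Col5a3 was -0.33 and 0.10 (-0.10 with both), Itga7 0.26 and -0.01 (0.13) and Itgb1 0.03 and -0.03 (0.00). Such a value is the ratio of the remaining hairpin library to the same scramble library. The calls already rest on both hairpins, so the kept direction is no separate support for them. With edgeR the higher calls among the 43 genes, 4 in all, came to 2 with DESeq2 size factors and 1 with limma-voom. The lower calls, 3 in all, came to 7 with total counts, 5 with at least 10 counts in every library and 7 with no filter. Of all genes 2.65% were called in either direction, against 1.49% with DESeq2 size factors, 8.98% with total counts and 1.23% with limma-voom. Total counts moved the median ratio of all genes to 0.04 with shAsns#1 and 0.11 with shAsns#2. At 1.5-fold the binomial calls against scramble were 6 higher and 11 lower in shAsns#1 (5.71% and 6.03% of all genes) and 6 and 11 in shAsns#2 (7.64% and 8.36%), and 3 and 2 between the hairpins. The lower calls of shAsns#2 came to 0 with at least 10 counts in every library or at least 50 in 1, filters that leave those genes out. Class medians moved with the filter, which changes the genes in them. With at least 10 counts in every library they were -0.11 and -0.30 (shAsns#1, shAsns#2) for fibrillar collagens, 0.72 and 0.74 for basement membrane collagens, 0.12 and -0.17 for laminins, -0.22 and -0.20 for other collagens and -0.19 and -0.14 for integrins. With at least 50 counts in 1 they were -0.11 and -0.30 for fibrillar and 0.72 and 0.74 for basement membrane collagens, -0.58 with shAsns#1 for other collagens and -0.17 and -0.15 for integrins. With no filter they were -0.02 and 0.51 for fibrillar and 0.00 and 0.74 for basement membrane collagens, and -0.03 with shAsns#1 for integrins. With total counts they were -0.28 and -0.22 for fibrillar collagens and, with shAsns#2, 0.23 for laminins, -0.59 for other collagens and 0.08 for integrins. No called gene changed sign in these alternatives, while the medians of fibrillar collagens, basement membrane collagens, laminins and integrins did, at the values given.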

Other observations

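Neighbouring genes of these families did not always have like levels. Col3a1 and Col5a2 lie side by side on chromosome 1 on opposite strands (chr1:45311538-45349706 and chr1:45374321-45503282), and Col3a1 had 7292, 8565 and 13967 counts in scramble, shAsns#1 and shAsns#2 where Col5a2 had 0, 1 and 5. Col4a5 had 33, 135 and 144 counts where the adjacent Col4a6 had 0, 0 and 3. Col6a1 and Col6a2, on the same strand of chromosome 10, had 2716, 894 and 1723 counts and 2158, 502 and 1047. These pairs were chosen after their values were seen, and no test was run on them.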
